A study of Mus musculus with 6 samples.

Results

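The genes described here are 10 genes of mesoderm specification and of the presomitic mesoderm: T, Tbx6, Msgn1, Mesp1, Mesp2, Rspo3, Pcdh8, Cited1, Ifitm1 and Ifitm3. They were chosen by symbol for what they are known to do and were looked up among the 54134 genes of the count table, in which all 10 have an entry. RNA was sequenced from C57BL/6 mouse tailbuds at E10.5, and the question was what changes when Nr6a1, an orphan nuclear receptor, is kept on in the tailbud past the stage at which it is normally cleared. The 2 Cdx2P:Nr6a1 embryos were transient transgenics made by pronuclear injection, in which regulatory sequence of Cdx2 drives Nr6a1, so that each is its own integration event and no line was bred. The 4 wildtype embryos were, per the labels, embryos negative for the transgene. Tissue was everything behind the last somite, with 1 library per embryo. The sample labels give E10.5, whereas 1 heading in the study's source data gives E9.5 for this comparison, and the stage of the labels is used here.

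Presomitic mesoderm is the unsegmented tissue at the tail end of the embryo from which somites are cut off in pairs. It is renewed from progenitors of the primitive streak and tailbud that carry T (Brachyury), and a cell that leaves this pool for the mesoderm switches on Msgn1 and Tbx6 under Wnt signalling. At the front of the tissue Tbx6 and Notch activate Mesp2, which places the next somite boundary. The count table has entries for genes of this programme from the progenitor to the boundary, but Mesp1 and Mesp2 had too few counts to be tested. Bulk tissue cannot tell fewer cells of a type from less RNA per cell.

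Nr6a1 itself was read first, as the check of the genotypes. Its CPM, the read count scaled to library size with TMM factors, was 3.94, 5.16, 5.52 and 6.90 in wildtype replicates 1 to 4 and 23.2 and 33.8 in Cdx2P:Nr6a1 replicates 1 and 2. The log2 fold change was 2.41 (SE 0.20, adjusted p = 0.00132 by edgeR's quasi-likelihood test), and the counts do not separate the transgene from the endogenous gene. The smallest library (44073460 counts) and the largest (67183802) were both transgenic. Of 12733 genes tested, 100 were higher and 103 lower in the transgenics at an adjusted p under 0.05. Xist was low and Y-linked genes were high in wildtype replicate 3 and Cdx2P:Nr6a1 replicate 2 only, so each genotype held embryos of both sexes.

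Of the 10 genes, 8 passed the filter on low counts and were tested. Among these 8, Cited1 and Ifitm1 were lower in Cdx2P:Nr6a1 tailbuds, beside 0.809% of all genes tested. None was higher by edgeR's test, beside 0.785% of all genes tested, and none was called higher under any alternative. At an unadjusted p under 0.05, 4 of the 8 were lower (Tbx6, Msgn1, Cited1 and Ifitm1), beside 4.99% of all genes tested, and 0 were higher, beside 5.54%. Both transgenic libraries lay below all wildtype libraries for 3 of the 8 (Tbx6, Cited1 and Ifitm1), beside 9.08% of all genes tested. For 0 of the 8 did both lie above, beside 9.46%. The median log2 fold change of the 8 was -0.30, whereas that of all genes tested was -0.000711. Cited1, Ifitm1 and Tbx6 are among the mesodermal genes that the study chose to display from these same libraries, so their direction is not independent evidence. The study displayed only genes with an FDR under 0.05 in its own edgeR analysis, whereas Tbx6 did not pass the quasi-likelihood test here.

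**Figure D1:**
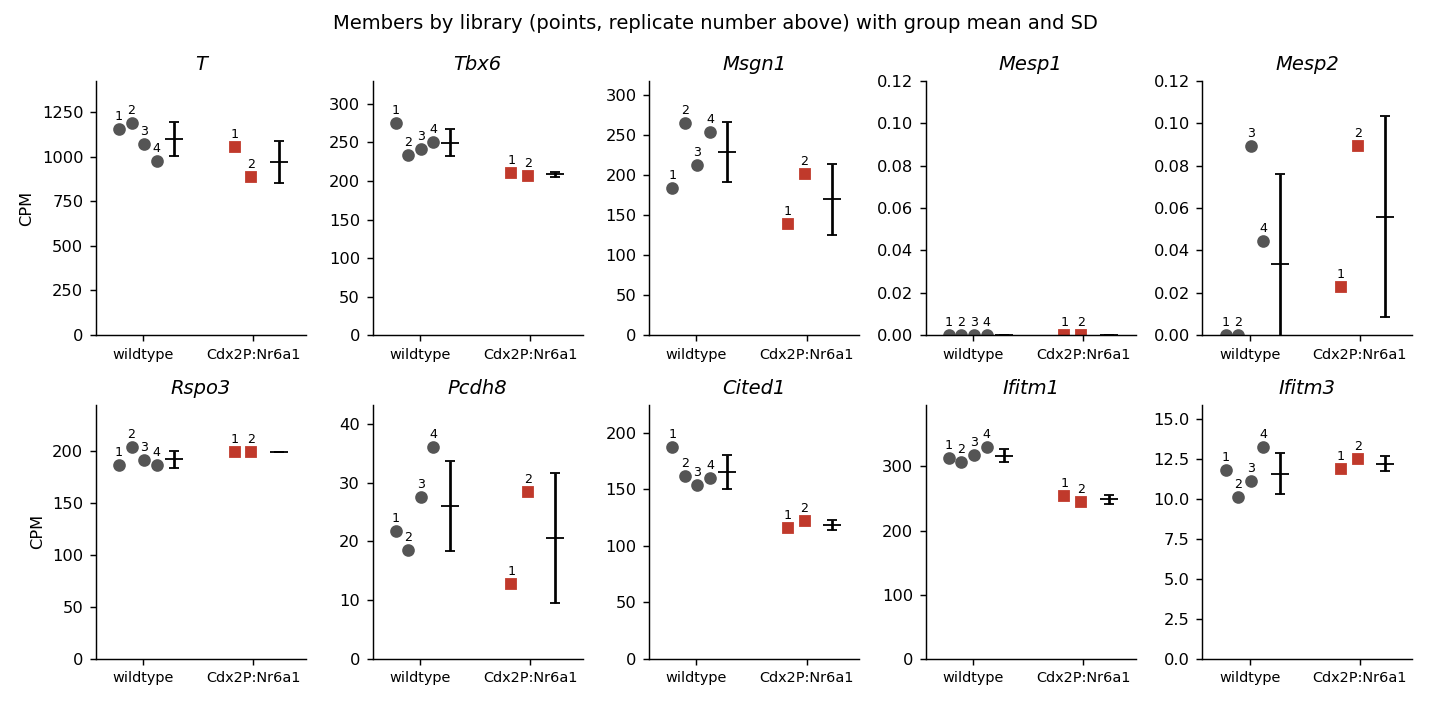
CPM (vertical axes, each from 0) of the 10 genes in 4 wildtype (circles) and 2 Cdx2P:Nr6a1 (squares) libraries, with replicate numbers above the points and black bars for the mean and SD of each group. The transgenic points lie below all wildtype points for Tbx6, Cited1 and Ifitm1, overlap them for T, Msgn1, Rspo3, Pcdh8 and Ifitm3, and Mesp1 has no count in any library.

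The transcription factors of the presomitic mesoderm come first, with the sequence in front of the start of Msgn1 and Tbx6, a pair of genes that mark the tissue. Both windows end where the RefSeq start begins or, for Msgn1, at the first base outside the exon of the count table (RefSeq, GRCm38.p6), and are written along the gene's strand. Capitals mark CTTTGA on either strand in Msgn1 (chr12:11208973-11209198, minus strand), the core of the site that Lef/Tcf factors of the Wnt pathway bind, and TATAAA in Tbx6 (chr7:126781233-126781482, plus strand).
Msgn1: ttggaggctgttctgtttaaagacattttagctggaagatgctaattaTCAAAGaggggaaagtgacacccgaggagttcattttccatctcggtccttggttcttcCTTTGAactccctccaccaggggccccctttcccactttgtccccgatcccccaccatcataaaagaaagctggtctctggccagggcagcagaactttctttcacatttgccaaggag
Tbx6: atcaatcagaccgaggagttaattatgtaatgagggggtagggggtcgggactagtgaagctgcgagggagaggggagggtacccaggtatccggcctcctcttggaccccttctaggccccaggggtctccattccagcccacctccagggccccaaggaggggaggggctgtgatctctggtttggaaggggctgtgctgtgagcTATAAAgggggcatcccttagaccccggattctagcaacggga
The matches in Msgn1 begin at positions -202 and -143 from the RefSeq start, and that in Tbx6 at -43. The RefSeq start of Msgn1 lies inside the exon of the count table, past the end of the printed window. Within 250 bases before the start, CTTTGA or its reverse complement TCAAAG is present in 13.8% of the 32851 promoters of the table and in those of 4 of the 9 members listed there (T, Msgn1, Mesp1 and Ifitm1). TATAAA is present on either strand in 12.4% of promoters and in those of Tbx6, Pcdh8 and Cited1. The T-box half-site AGGTGTGA is present in 1.12% of promoters and in 0 of the 9. These letters were chosen after the promoters had been looked at, and a match is not a bound site.

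T, a T-box factor that is needed to keep the progenitors of the tail mesoderm and the notochord, had the highest mean level per exon length of the 10 genes. T (chr17:8434423-8442496, plus strand; coordinates of the genes are those of the count table on mm10) had a CPM of 1155, 1186, 1069.5 and 976 in wildtype and of 1052 and 887 in the transgenics. The first transgenic library lay among the wildtype values and the second below all of them. T differed by -0.18 on the log2 scale (SE 0.09), which did not pass the test (adjusted p = 0.564, edgeR). T is also expressed in the notochord. The summed CPM of 9 notochord markers was 149 to 173 in wildtype and 170 to 200 in the transgenics, with 0 of the 9 called by edgeR's quasi-likelihood test (2 at an unadjusted p under 0.05, 1 called by DESeq2), 5 with a fold change above 0 and 4 below, and the notochord's part in the level of T was not tested.

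Tbx6, the T-box factor that commits cells to paraxial mesoderm at the expense of a neural fate, had both transgenic libraries below all wildtype libraries. Its CPM was 275, 233, 241 and 250 in wildtype and 210 and 207 in the transgenics (chr7:126781483-126785560, plus strand). The transgenic mean was 83.5% of the wildtype mean. The log2 fold change of Tbx6 was -0.26 (SE 0.06), with a p of 0.00301 before and 0.107 after adjustment over all genes tested (edgeR's quasi-likelihood test). The call depended on the test, since DESeq2 gave an adjusted p of 0.00503 and edgeR's likelihood ratio test one of 0.0294 for the same fold change. Over 16 alternatives the fold change lay between -0.29 and -0.22, the adjusted p between 0.00148 and 0.380, and 4 alternatives called the gene. The exact permutation test gave p = 0.0667 for Tbx6, the smallest that the 15 arrangements of 2 against 4 libraries allow.

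Msgn1, a basic helix-loop-helix factor that works with Tbx6 to move cells from the progenitor pool into presomitic mesoderm, had a lower mean in the transgenics but overlapped between the genotypes. Its CPM was 183, 264, 213 and 254 in wildtype and 138 and 201 in the transgenics (chr12:11208360-11208972, minus strand). The first transgenic library was the lowest of all 6, at 60.6% of the wildtype mean, while the second, at 87.9%, lay above wildtype replicate 1. Msgn1 differed by -0.43 on the log2 scale (SE 0.17, adjusted p = 0.392, edgeR). It was -0.72 without Cdx2P:Nr6a1 replicate 2 and -0.19 without Cdx2P:Nr6a1 replicate 1, so that the value rests largely on 1 library.

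The steps from T to Tbx6 and from Tbx6 to Msgn1 were also read as ratios within each library, which do not depend on scaling. The ratio of Tbx6 to T counts was 0.238, 0.197, 0.225 and 0.256 in wildtype and 0.200 and 0.233 in the transgenics. The ratio of Msgn1 to Tbx6 counts was 0.666, 1.13, 0.882 and 1.01 in wildtype and 0.657 and 0.972 in the transgenics. Both ratios overlapped between the genotypes. The mean log2 ratio differed by -0.08 for Tbx6 to T and by -0.18 for Msgn1 to Tbx6 (exact permutation p = 0.6 for each, and 0.6 after adjustment over 3 ratios). Without Cdx2P:Nr6a1 replicate 1 the differences were 0.03 and 0.10, so neither kept its sign.

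Mesp1 and Mesp2, neighbouring basic helix-loop-helix factors, were at or near 0. Mesp2 sets the somite boundary at the front of the presomitic mesoderm, and Mesp1 marks the earliest cardiac and cranial mesoderm and is expressed beside Mesp2. They lie 16938 bases apart on chromosome 7 (chr7:79792241-79793788, minus strand, and chr7:79810727-79813439, plus strand), and no other gene of the table shares their exons. Mesp1 had 0 counts in each of the 6 libraries, which allows up to 0.00946 CPM over the 317153788 counts of all libraries if the limit is set at 3 counts, and up to 0.0116 CPM at the upper end of the 95% exact Poisson interval. Mesp2 had 0, 0, 5 and 2 counts in wildtype and 1 and 6 in the transgenics, in all 14 (95% exact Poisson interval 7.65 to 23.5, counting error only), or 0.0441 CPM. Neither gene was tested and no fold is given. A difference between the genotypes was not detectable at this depth.

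Some other genes of the boundary and of formed somites were also near 0. Of 26 segmentation genes listed beside the 10, Cer1 had 0 counts, Ripply1 and Tbx18 had 4 counts each over all 6 libraries and Ripply2 had 20. Ripply1 and Ripply2 are boundary factors that act with Mesp2, and Tbx18 and Uncx mark the front and rear parts of a formed somite. Uncx lay between 0.125 and 0.445 CPM in wildtype and between 0.432 and 0.676 in the transgenics. Other genes of the front of the presomitic mesoderm and of somites in the same list were well detected, with wildtype means of 12.5 CPM for Tcf15, 15.6 for Meox1, 17.7 for Aldh1a2, 29.2 for Foxc1, 5.42 for Foxc2 and 302 for Epha4. Genes of the body of the presomitic mesoderm were abundant in the same libraries. The Notch ligand Dll1 lay between 255 and 353 CPM in wildtype and was 325 and 301 in the transgenics. Dll3, a Delta-like gene of the same tissue, lay between 234 and 250 in wildtype and was 219 and 218 in the transgenics. These genes were named after their values had been seen. Per exon length (RPKM, the CPM divided by the exon length in kilobases), the wildtype mean was 474 ± 40.7 (SD, n = 4) for T, 373 ± 61.2 for Msgn1 and 138 ± 9.97 for Tbx6, against 0.0731 ± 0.0613 for Ripply2.

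**Figure D2:**
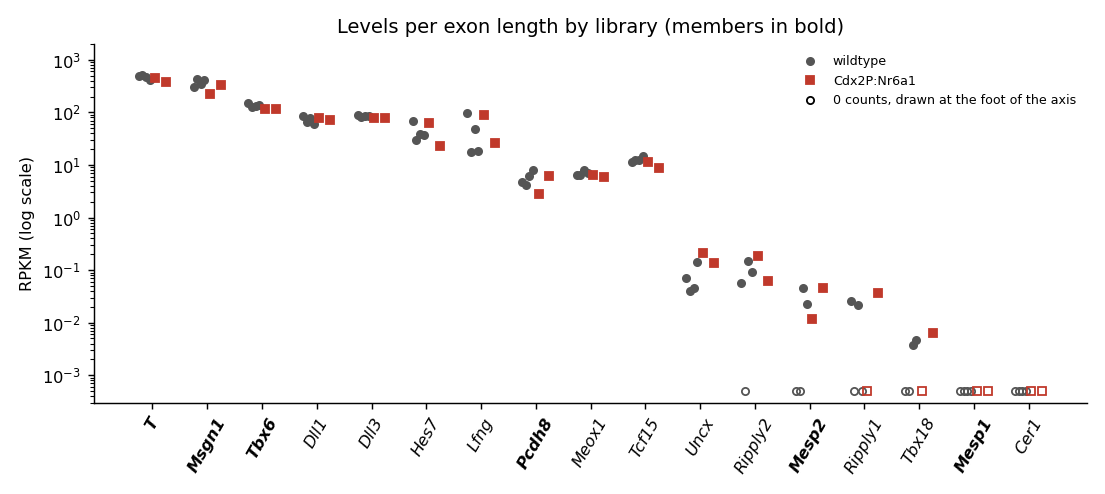
RPKM (vertical axis, log scale) of T, Msgn1, Tbx6, Pcdh8, Mesp2 and Mesp1 (bold) and of other genes of segmentation and somites. Wildtype libraries are circles and Cdx2P:Nr6a1 libraries squares, with open symbols at the foot of the axis for 0 counts. Genes of the progenitors and the body of the presomitic mesoderm lie on the left, T and Msgn1 highest, and Ripply2, Mesp2, Ripply1, Tbx18, Mesp1 and Cer1 lie at or near 0 on the right.

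Rspo3, a secreted R-spondin that raises Wnt signalling by taking the ligases Rnf43 and Znrf3 off the cell surface, was the steadiest of the 8 genes between the transgenic embryos. Its CPM was 187, 204, 191 and 186 in wildtype and 199 and 199 in the transgenics (chr10:29452416-29535867, minus strand). The transgenic values lay inside the wildtype range. Rspo3 differed by 0.05 on the log2 scale (SE 0.05, adjusted p = 0.858, edgeR). Of its 3090 exon bases, 404 overlap Gm48159. The list of R-spondins, their Lgr receptors and ligases held 8 genes, of which 3 passed the filter and 0 were called by edgeR's test, by DESeq2 or by limma voom (1 at an unadjusted p under 0.05). Lgr4, a receptor of R-spondins, had a log2 fold change of -0.25 and Rnf43 one of -0.20.

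Pcdh8, a protocadherin known as PAPC that takes part in cell sorting and in the separation of somites, was the most variable of the 8. Its CPM was 21.8, 18.5, 27.5 and 36.0 in wildtype and 12.7 and 28.3 in the transgenics (chr14:79766775-79771312, minus strand). The first transgenic library was the lowest of all, at 48.8% of the wildtype mean, and the second was at 109%. Pcdh8 differed by -0.33 on the log2 scale (SE 0.32, adjusted p = 0.859, edgeR). It was 0.13 without Cdx2P:Nr6a1 replicate 1 and -1.03 without Cdx2P:Nr6a1 replicate 2. Of its 4538 exon bases, 436 overlap Gm9748.

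Cited1, a transcriptional co-regulator without a DNA-binding domain that binds CBP and p300, had the larger of the 2 called changes. Its CPM was 187, 161, 153 and 160 in wildtype and 115 and 122 in the transgenics (chrX:102247381-102252181, minus strand). Every wildtype library lay above both transgenic libraries, whose mean was 71.6% of the wildtype mean. Cited1 fell, with a log2 fold change of -0.48 (SE 0.08) and an adjusted p of 0.0208 by edgeR's quasi-likelihood test. The fold change lay between -0.55 and -0.42 over 16 alternatives, of which 14 called it. With 1 transgenic library left out the call was lost, at an adjusted p of 0.172 without Cdx2P:Nr6a1 replicate 1 and of 0.108 without replicate 2. Cited1 is X-linked and the embryos were of both sexes. With Y-linked expression as a covariate the log2 fold change was -0.46 (adjusted p = 0.0448).

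Nr6a1 is known to bind a direct repeat of the half-site AGGTCA with no spacer, and Cited1 is the 1 member of the 9 with that half-site within 250 bases before a listed start. The stretch around it lies at chrX:102250976-102251005 on the minus strand (RefSeq, GRCm38.p6), with TGACCT, the half-site read on the other strand, in capitals.
Cited1: cttttaacgttgTGACCTtgggttaagtta
The match begins at position -217 from the most downstream of the starts listed for Cited1. The half-site is present in 14.0% of the 32851 promoters, and the full repeat AGGTCAAGGTCA in 2 of them (0.00609%) and in 0 of the 9 members. A match is not a bound site here either, and binding of Nr6a1 was not tested.

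Ifitm1 and Ifitm3 encode interferon-induced transmembrane proteins that also mark early mesoderm and primordial germ cells. They are neighbours on chromosome 7, 39760 bases apart. Ifitm1 had a CPM of 313, 306, 318 and 330 in wildtype and of 254 and 244 in the transgenics (chr7:140967221-140969825, plus strand). The genotypes did not overlap, and the transgenic mean was 78.5% of the wildtype mean. The log2 fold change of Ifitm1 was -0.35 (SE 0.05), and the gene fell with an adjusted p of 0.0116 (edgeR). The fold change lay between -0.38 and -0.32 over 16 alternatives, of which 14 called it, and the call was lost when either transgenic library was dropped (adjusted p = 0.0620 without the first and 0.0891 without the second).

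Ifitm3 had a CPM of 11.8, 10.1, 11.1 and 13.2 in wildtype and of 11.9 and 12.5 in the transgenics (chr7:141009586-141010770, minus strand), so the transgenic values lay inside the wildtype range. Its log2 fold change was 0.08 (SE 0.12, adjusted p = 0.915, edgeR). Per exon length Ifitm1 was 17.0-fold above Ifitm3 in wildtype. The ratio of Ifitm1 to Ifitm3 counts was 26.6, 30.2, 28.5 and 24.9 in wildtype and 21.4 and 19.5 in the transgenics. Both transgenic ratios lay below all wildtype ratios, with a difference of -0.43 in mean log2 ratio (exact permutation p = 0.0667, the smallest possible, and 0.2 after adjustment over 3 ratios). Sequence shared with other transcripts was small, at 0.582% of the 75-base words of Ifitm1 and 0.662% of those of Ifitm3, all with Gm7676. Of 10 germ cell markers, 4 were tested and 0 called by edgeR or DESeq2 (0 at an unadjusted p under 0.05), their summed CPM was 78.2 to 88.2 in wildtype and 83.7 to 92.1 in the transgenics, and the defining markers Dppa3 and Prdm14 were under 0.1 CPM in every library. Other markers of that list were detected in every library, among them Nanos3 (1.15 to 1.94 CPM), Prdm1 (2.95 to 3.91) and Dnd1 (2.43 to 3.45).

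**Figure D3:**
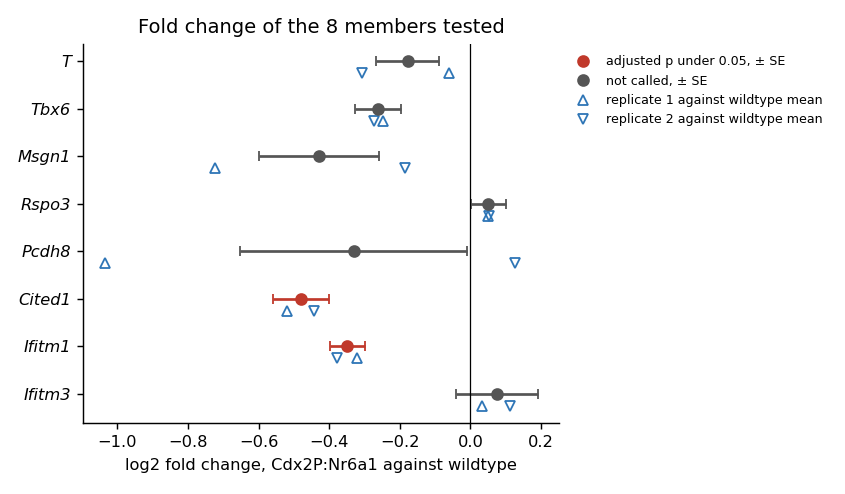
Log2 fold change of Cdx2P:Nr6a1 against wildtype (horizontal axis) for the 8 genes tested, as the edgeR estimate ± SE (filled, red where the adjusted p is under 0.05) and as each transgenic library against the wildtype mean (open triangles). Both libraries lie together for Tbx6, Rspo3, Cited1, Ifitm1 and Ifitm3, and apart for Msgn1 and Pcdh8, where replicate 1 is lower, and for T, where replicate 2 is lower.

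Levels were compared between the genes only per exon length. In wildtype the mean RPKM fell in the order T, Msgn1, Ifitm1 (290 ± 9.11, SD, n = 4), Tbx6, Cited1 (94.3 ± 8.51), Rspo3 (62.1 ± 2.64), Ifitm3 (17.1 ± 1.92) and Pcdh8 (5.72 ± 1.69), with Mesp2 and Mesp1 last. The median of all genes tested was 7.60, and only Pcdh8 of the 8 lay below it. From T down to Pcdh8, each gene lay above the next within every wildtype library. Across libraries the range of T (422 to 512) overlapped that of Msgn1 (299 to 431), which overlapped that of Ifitm1 (280 to 302). In the transgenics Msgn1 ranged from 226 to 327 and Ifitm1 from 223 to 232.

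The embryos of 1 genotype differed more in some of these genes than in others. The coefficient of variation over the 4 wildtype libraries was 29.6% for Pcdh8 and 16.4% for Msgn1, above 98.3% and 92.4% of all genes tested, whose median was 5.84%. It was 3.14% for Ifitm1 and 4.24% for Rspo3, and 7.20% for Tbx6, 8.60% for T, 9.03% for Cited1 and 11.2% for Ifitm3. The same genes stood apart between the transgenic embryos. These differed by 1.16 on the log2 scale for Pcdh8 and by 0.54 for Msgn1, beside a median of 0.0939 over all genes tested, and by 0.00232 for Rspo3.

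Msgn1 is known to cycle with the segmentation clock in presomitic mesoderm, and the libraries differed in clock genes too. Lfng, a Notch-pathway clock gene, had a CPM of 243, 44.5, 120 and 47.0 in wildtype and of 222 and 66.4 in the transgenics. Hes7, another clock gene, had a CPM of 122, 53.8, 69.5 and 65.8 in wildtype and of 116 and 42.0 in the transgenics. Both were highest in replicate 1 of each genotype, the libraries in which Msgn1 was lowest for its genotype. Dkk1, a Wnt-pathway clock gene, was at 30.8, 97.6, 30.3 and 67.4 in wildtype and at 31.4 and 73.0 in the transgenics, lowest in the 3 libraries with the most Lfng. Over the 6 libraries Msgn1 and Lfng had a Pearson r of -0.86 (exact permutation p = 0.0236, 0.189 after adjustment over the 8 genes) and a Spearman rho of -0.89 (exact permutation p = 0.0333, 0.267 adjusted). Without wildtype replicate 1 and Cdx2P:Nr6a1 replicate 1, the libraries farthest from the median of Lfng, r was -0.74 (n = 4). The relation was looked for after the values had been seen and does not pass the adjustment. For the other 7 genes r lay between -0.53 (Pcdh8) and 0.28 (T). With the Lfng level as a covariate, a fit added after the values had been seen, the log2 fold change of Msgn1 was -0.33 (adjusted p = 0.0248, edgeR), and the part of the clock in the difference between the genotypes was not tested further.

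**Figure D4:**
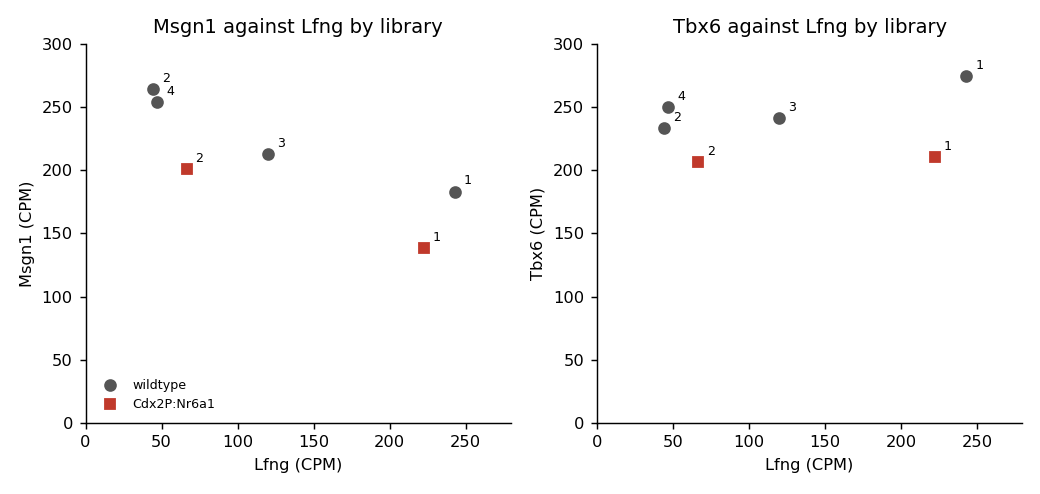
CPM of Msgn1 (left) and Tbx6 (right) on the vertical axis against the CPM of Lfng on the horizontal axis, 1 point per library, with replicate numbers beside the points for wildtype (circles) and Cdx2P:Nr6a1 (squares). Msgn1 is lower where Lfng is higher in both genotypes, while Tbx6 lies below all wildtype libraries in both transgenics at either Lfng level.

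Other genes of the tail progenitors and of segmentation were read beside these 10. Of 18 streak and neuromesodermal progenitor genes, 17 were tested, 1 was higher and 2 lower (0.785% and 0.809% of all genes tested), and their median log2 fold change was -0.03. At an unadjusted p under 0.05, 4 of the 17 were higher and 4 lower (5.54% and 4.99% of all genes tested). Cdx2, a caudal homeobox gene of the tail progenitors, had a CPM of 306, 285, 296 and 296 in wildtype and of 407 and 347 in the transgenics, above all wildtype libraries (log2 fold change 0.35, SE 0.07, adjusted p = 0.0340, edgeR). The transgene carries regulatory sequence of Cdx2, and whether the construct adds to the counts of Cdx2 was not tested. Sp5, a Wnt target and partner in the tailbud, had a CPM of 88.9, 111, 85.7 and 115 in wildtype and of 66.8 and 63.7 in the transgenics, below all wildtype libraries (-0.62, SE 0.12, adjusted p = 0.0428). Cdx1, a Wnt-responsive relative of Cdx2, had a CPM of 9.80, 9.71, 9.94 and 11.7 in wildtype and of 6.69 and 6.87 in the transgenics, also below all (-0.60, SE 0.11, adjusted p = 0.0313). These calls were near the threshold. That of Cdx2 was lost without each single library other than Cdx2P:Nr6a1 replicate 2. That of Sp5 was lost without wildtype replicate 2 or 4 or either transgenic library, that of Cdx1 without wildtype replicate 3 or either transgenic library, and both with Y-linked expression as a covariate.

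Of the 26 segmentation genes, 20 were tested, 0 were higher and 1 lower by edgeR's quasi-likelihood test, and their median log2 fold change was 0.01. At an unadjusted p under 0.05, 1 of the 20 was higher and 3 were lower. The gene that fell was Aldh1a2, which makes retinoic acid in the front of the presomitic mesoderm and in somites. Its CPM was 17.6, 14.9, 17.6 and 20.6 in wildtype and 6.40 and 8.41 in the transgenics, with no overlap (log2 fold change -1.25, SE 0.16, adjusted p = 0.00693). The call was lost without Cdx2P:Nr6a1 replicate 1 (adjusted p = 0.0612). Of 13 relatives of the 10 genes in the Ifitm, Cited, T-box and protocadherin families, 7 were tested and 0 called by edgeR's quasi-likelihood test, with a median of -0.06 (1 at an unadjusted p under 0.05, and 1 called by DESeq2). Tbx3, a T-box relative, had a log2 fold change of -0.71 (adjusted p = 0.0682) and Ifitm5 one of -0.35.

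Markers of other tissues were read beside the falls in Cited1 and Ifitm1. Of 8 neural tube markers, 4 were tested and 2 were higher, Sox3 (5.33 ± 0.729 CPM in wildtype, SD, n = 4; 10.6 and 14.8 in the transgenics; adjusted p = 0.00714, edgeR) and Sox1 (1.18 ± 0.212; 2.93 and 5.10; adjusted p = 0.0116). Sox1 passed the filter on low counts only through the transgenic libraries, in which it is high, and was not tested when either was left out. The summed CPM of the 8 neural tube markers was 138 to 153 in wildtype and 143 to 164 in the transgenics. Most of it came from Pax3 and Msx1 (wildtype means 59.4 and 80.1 CPM), neither of which was called. Olig2 was at 0 in all libraries, and the call of Sox3 was lost without Cdx2P:Nr6a1 replicate 2. Of 8 surface ectoderm markers, all had a fold change above 0 and 1 was called, Krt18 (50.0 ± 3.21 CPM in wildtype, SD, n = 4; 64.2 and 64.6 in the transgenics; adjusted p = 0.0264), a call lost without wildtype replicate 2 or 3 or either transgenic library. Their summed CPM was 189 to 248 in wildtype and 237 to 278 in the transgenics. All 8 endothelium and all 8 erythroid markers were tested, with 6 of 9 gut endoderm and 6 of 8 macrophage markers. Only 4 of 8 somite and 1 of 8 anterior embryo markers were tested. None of those tested passed edgeR's quasi-likelihood test or DESeq2, while edgeR's likelihood ratio test called 1 macrophage marker. At an unadjusted p under 0.05 there were 1 gut endoderm, 1 macrophage and 2 somite markers. Macrophage markers summed to 14.9 to 33.7 CPM in wildtype and to 16.0 and 49.9 in Cdx2P:Nr6a1 replicates 1 and 2. Gut endoderm markers summed to 346 to 452 CPM in wildtype and 429 to 503 in the transgenics, and erythroid markers to 8457 to 20713 and 10157 to 14117, with 8 of 8 erythroid fold changes below 0. The part of these tissues in the falls of Cited1 and Ifitm1 was not tested.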

How the data were processed

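RNA was sequenced from 6 tailbuds (4 wildtype, 2 Cdx2P:Nr6a1) with a stranded mRNA kit and single-end reads. The authors aligned the reads with STAR to mm10, per the submitters' processing notes, and deposited raw counts per gene with exon coordinates. The counting program and its strand setting are not given in the sources used here. A second deposited table holds the authors' edgeR comparison for part of the genes (fold changes, p-values, FDR, counts and CPM) and was not used. Other columns of per-sample values numbered 0. The genes and lists were chosen with earlier results of these data known.

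The tests ran under edgeR (version 4.0.16), limma (version 3.58.1) and DESeq2 (version 1.42.0) in R (version 4.3.3). Python 3.11.15 was used for tables and figures, through pandas (version 2.3.3), numpy (version 2.4.6), scipy (version 1.17.1) and matplotlib (version 3.10.9). A gene was kept where 2 or more libraries had over 10 counts and over 2 CPM, libraries were scaled by TMM, and edgeR's quasi-likelihood test compared the genotypes over 12733 genes without covariates (Benjamini-Hochberg adjusted p under 0.05). SE is the fold change divided by the square root of F. The biological coefficient of variation was 9.40%. The fit was tested on simulated counts. Single ratios and correlations were tested by two-sided exact permutation over libraries. A ratio of Mesp1 to Mesp2 was planned and was not computed, since their counts were at or near 0. RPKM used the exon length of the count table.

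Named were the 10 genes, Nr6a1, sex-linked genes, and of each list the genes called (at most 4) or, where none was, at most 2 with the largest change. Of markers of other tissues, those called or at 0 in all libraries were named. Genes named outside this rule (those of the front of the presomitic mesoderm, clock genes, somite genes, Dll1, Dll3, Pax3, Msx1 and germ cell markers) were chosen after their values were seen. Each library is 1 embryo. Alternatives were other tests, scalings and filters, the replicate number as a block, Y-linked expression as a covariate and each library left out. The Lfng level as a covariate was added after seeing the data. All exons of the 10 genes were identical to those of GENCODE M21.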

Additional observations from a re-analysis of the deposited data

How the results depend on the processing

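Of the 16 alternatives for each gene, 14 called Cited1 and Ifitm1, 4 called Tbx6, 3 called Msgn1, 1 called Pcdh8 and 0 called T, Rspo3 or Ifitm3. Leaving out each library moved Pcdh8 between -1.03 and 0.13 (0.13 without Cdx2P:Nr6a1 replicate 1). Leaving out each library gave log2 ratio differences of -0.19 to 0.031 for Tbx6 to T, -0.46 to 0.10 for Msgn1 to Tbx6 and -0.50 to -0.36 for Ifitm1 to Ifitm3. It gave 27 to 82 genes higher and 22 to 93 lower, 0 to 2 of the 8 genes lower (0 without either transgenic library), 0 to 2 streak and progenitor genes higher and 0 to 2 lower, and 0 to 1 segmentation genes lower. A transgenic library left alone was assumed to vary like the wildtype libraries. The likelihood ratio test called 213 genes higher and 188 lower, with 3 streak genes and 1 segmentation gene higher. DESeq2 called 244 higher and 233 lower, with 4 streak genes higher and 4 lower and 1 segmentation gene higher. Without a filter on low counts 508 were higher and 368 lower, with 5 of the 8 genes lower, 5 streak genes higher and 4 lower, and 3 segmentation genes higher. With Y-linked expression as a covariate 0 streak genes were lower. The cause was not tested in any of these.

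The labels use the replicate numbers to name the embryos and state no pairing. Deviations of same-numbered libraries from their group means had a correlation of 0.205 for replicate 1 and -0.151 for replicate 2. With 2 transgenic libraries the deviations of the pair mirror each other, so these values are not separate checks and cannot decide on pairing. With the replicate block 236 genes were higher and 206 lower, 4 of the 8 genes were lower (Cited1, Ifitm1, Msgn1 at an adjusted p of 0.00146 and Tbx6 at 0.0372, edgeR), 2 streak genes were higher and 4 lower, and 1 segmentation gene was higher. With 2 transgenic embryos the fits across all genes carry the tests, since a single permutation test cannot give a p under 0.0667.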
